A study of Mus musculus with 2 samples.

Results

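The interferon-inducible GTPases described here are 8 genes, taken by name from the 32285 genes listed in both libraries. They are the guanylate-binding protein genes Gbp2, Gbp3, Gbp5 and Gbp7 and the immunity-related GTPase genes Iigp1, Igtp, Irgm1 and Ifi47. They were followed in neutrophils, macrophages and T/NK cells from tumors of 4T1, a mouse mammary carcinoma line grown in BALB/c mice. The age of the mice was given as 6 to 8 weeks in the deposited record and as another range in the study's text. The 4T1P tumors came from the parental line, which does not respond to anti-PD1, and the 4T1M tumors from cells mutagenized with MNNG, whose tumors respond to it. All tumors were taken at baseline, before treatment, and cells carrying GR1, an antigen of neutrophils and monocytic cells, were isolated from them with magnetic beads. Each condition was 1 droplet library (10x Genomics) of pooled mice, given as 5 per sample in the series record and as another number in the study's text. No spread between animals could therefore be estimated and no p-value was computed, and 4T1P and 4T1M cannot be told apart from the 2 libraries and pools that carry them. All intervals below are at 95% and cover counting error only, so they are too narrow for a difference between tumors.

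Both families are large GTPases that cells make after exposure to interferon. Guanylate-binding proteins assemble on the membranes of bacteria and of vacuoles that hold parasites, and some of them promote inflammasome activation. The immunity-related GTPases fall into effectors that load onto such vacuoles, among them the product of Iigp1, and regulators of the Irgm group, among them the products of Irgm1 and Igtp, which keep the effectors off the cell's own membranes. Their genes respond to IFN-gamma, in part through the transcription factor IRF1, and, to differing degrees, to type I interferon through the ISGF3 complex, of which IRF9 is a part.

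Barcodes were retained when they held between 500 and 5000 genes and no more than 10% mitochondrial UMIs, which kept 1726 of 2947 in 4T1P and 3461 of 5004 in 4T1M. A retained barcode was called a neutrophil when S100a8 and S100a9 made up at least 1.5% of its UMIs and C1qa, C1qb, C1qc and Apoe together less than 0.5%. It was called a macrophage when S100a8 and S100a9 were under 1.5% and those 4 genes with Csf1r, Cd68 and Fn1 reached 0.3%, and a T/NK cell when it held at least 2 of Cd3d, Cd3e, Cd3g, Trac, Trbc2 and Nkg7. This gave 612 neutrophils, 798 macrophages and 74 T/NK cells in 4T1P, and 1686, 976 and 98 in 4T1M. Most markers that the rules did not use fitted the names. The 10 further neutrophil markers summed to 18806 CPM (UMIs scaled to 1000000 UMIs of the class) in the neutrophils of 4T1P and 16008 CPM in those of 4T1M, against 501 and 623 CPM in macrophages. The 10 further T and NK markers summed to 2580 and 2363 CPM in T/NK cells, against 4.79 and 3.96 CPM in macrophages. Macrophages were set apart less sharply by their 12 further markers. These summed to 7166 and 5830 CPM in macrophages but to 3970 and 3935 CPM in neutrophils. Cd14 and Ctsb stood at 3084 and 783 CPM in the neutrophils of 4T1P, and Cd14 was higher there than in macrophages. The other 10 were at 7.74% of their macrophage level or below in neutrophils. Depth per cell was close between the libraries within a class, with median UMIs of 3054.5 and 2957.5 in neutrophils, 9727 and 9213.5 in macrophages and 5640 and 5596.5 in T/NK cells, for 4T1P and 4T1M in turn. The libraries shared 5 barcodes, of which 3 were retained in both, and 1 retained barcode of 4T1P and 4 of 4T1M met the rules of 2 classes.

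The 4 GBP members lie on chromosome 3 of GRCm38 within 144 kb, all on the plus strand: Gbp5 at chr3:142493978-142522344, Gbp7 at chr3:142530342-142550149, Gbp3 at chr3:142560026-142573209 and Gbp2 at chr3:142620602-142638008. Irgm1 (chr11:48861968-48871683, minus strand), Ifi47 (chr11:49076587-49096974, plus strand) and Igtp (chr11:58199556-58207591, plus strand) lie on chromosome 11. In the GENCODE annotation Igtp overlaps Irgm2 on the same strand, and Ifi47 overlaps Olfr56 on the same strand. Gbp7 overlaps the processed pseudogene Gm43802 on the same strand. Gbp2 has a close paralog in Gbp2b. Reads that fit several genes equally well could have been lost or split for these pairs, so their levels are less certain.

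RefSeq promoter windows of GRCm38, from 250 bases before to 50 bases after a gene's start, were available for 7 of the 8 members. The RefSeq starts of Gbp2, Gbp3, Gbp5 and Irgm1 lie inside the genes as GENCODE draws them. The windows were searched on both strands for GAAA and GAAA set apart by any 2 bases (TTTC and TTTC on the other strand), the core of the interferon-stimulated response element that ISGF3 and IRF factors recognise. The letters were found in 6 of the 7 members, and in 3.44% of all 32851 promoter windows. Members were counted by gene and the background by window. Gbp3 had a second window (chr3:142560106-142560405), for another start, which held none of these letters. The matches are shown with 10 bases on each side because 6 of the members hold these letters near the start. They are read 5′ to 3′ on the gene's strand, with the match in capitals:
Gbp2 (chr3:142620594-142620623, plus strand): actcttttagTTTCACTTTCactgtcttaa
Gbp3 (chr3:142559989-142560018, plus strand): caggacacagTTTCAGTTTCtatttcccag
Gbp5 (chr3:142496759-142496788, plus strand): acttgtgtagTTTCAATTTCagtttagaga
Gbp7 (chr3:142530273-142530302, plus strand): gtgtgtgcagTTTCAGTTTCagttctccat
Igtp (chr11:58199512-58199541, plus strand): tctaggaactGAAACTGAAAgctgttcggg
Irgm1 (chr11:48871431-48871460, minus strand): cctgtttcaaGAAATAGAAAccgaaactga

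The GBP members carried the match in its TTTC form and Igtp and Irgm1 in its GAAA form. It began 59 bases before the start in Gbp2, 45 in Gbp3 (from the start of its first window), 165 in Gbp5, 53 in Gbp7, 34 in Igtp and 30 in Irgm1. Gbp3 and Irgm1 each held a second match that overlapped the one shown. The window of Ifi47 held none of these letters. The palindrome TTCNNNGAA, the core of the gamma-activated site of IFN-gamma-induced genes, was in the windows of 3 members and in 8.3% of all windows. Gbp5 and Gbp7 held 2 matches each. Igtp held 1, next to its GAAA match:
Gbp5 (chr3:142496872-142496900, plus strand): tggccgttatTTCTCAGAAccaagcacag
Gbp7 (chr3:142530239-142530267, plus strand): aagcagaagcTTCTCAGAAagtcagcaca
Igtp (chr11:58199501-58199529, plus strand): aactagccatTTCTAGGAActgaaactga

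The levels were compared first between the classes of 1 library, to ask in which tumor-infiltrating cells the RNA made up more of the UMIs. The members did not share a pattern. As a share of class UMIs, Gbp2, Igtp, Irgm1 and Ifi47 were higher in neutrophils than in macrophages, Gbp3 and Gbp7 were lower, and Iigp1 was nearly absent from neutrophils. Macrophages held more UMIs per cell, so the order per cell can differ. Unthinned, Gbp5 was found in 9.48% of neutrophils and 19.9% of macrophages in 4T1P, but Gbp2 in 34.5% and 25.6%. In 4T1M, Irgm1 was found in 20.2% and 23.9%, Ifi47 in 23.2% and 27.3%, and Gbp2 in 47.0% and 38.3%.

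Gbp2 stood at 236 CPM in the neutrophils of 4T1P against 54.1 CPM in its macrophages, a ratio of 4.36, and at 320 against 106 CPM in 4T1M, a ratio of 3.02. Igtp, a regulator of the Irgm group, stood at 59.9 against 15.2 CPM in 4T1P and at 79.2 against 31.0 CPM in 4T1M. Irgm1 stood at 71.5 against 24.8 CPM and at 82.4 against 39.2 CPM. Ifi47 differed in the same way, with ratios of 3.57 in 4T1P and 2.32 in 4T1M, and Gbp5, an inflammasome-promoting member, showed the smallest excess, with ratios of 1.29 and 1.5. For these 5 genes the counting interval of the log2 ratio lay above 0 in both libraries. Gbp3 had the opposite order, at 31.6 CPM in the neutrophils of 4T1P, 46.5% of its macrophage level (interval 36.1% to 58.6%), and 43.9% in 4T1M (38.4% to 49.8%). Gbp7 in neutrophils was at 64.5% of its macrophage level in 4T1P and 68.1% in 4T1M, again with intervals below 100%.

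Iigp1, the effector that coats parasite vacuoles, lies on chromosome 18 of GRCm38 (chr18:60376027-60392634, plus strand). It gave 6 UMIs in the neutrophils of 4T1P and 18 in those of 4T1M, each in a different cell, against 405 and 675 UMIs in macrophages. Its neutrophil level was 5.61% of the macrophage level in 4T1P (1.89% to 11.4%) and 3.89% in 4T1M (2.23% to 6.03%). The 12 macrophage markers outside the rules, read the same way, had a median of 2.98% in 4T1P and 4.69% in 4T1M. Within its counting interval, Iigp1 in neutrophils was thus at the level of macrophage RNA in these barcodes and cannot be read as expression by neutrophils. The markers ranged widely, since Ctsb and Cd14 are also transcribed in neutrophils, and Cd14 was higher there than in macrophages. The other 7 members stood at 43.9% of the macrophage level or above in both libraries, and the other 10 markers at 7.74% or below. In 4T1P the highest of these 10 markers was Lyve1 at 5.20%, just under Iigp1.

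**Figure D1:**
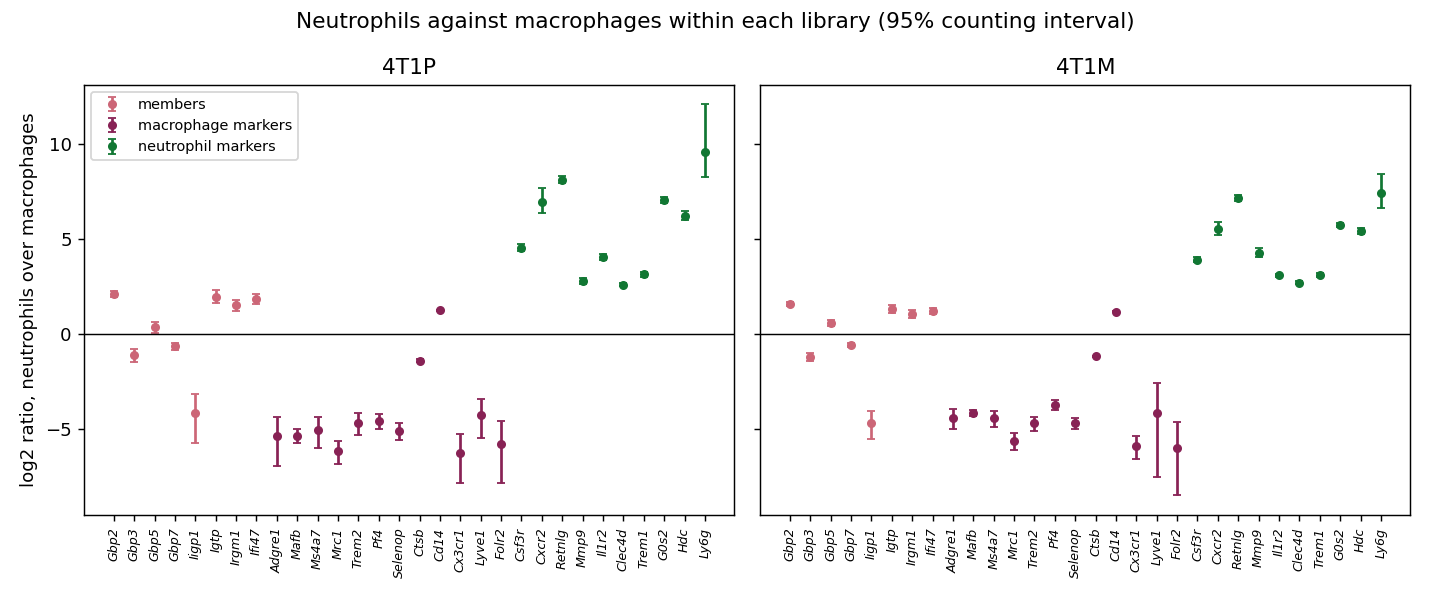
Log2 ratio of the level in neutrophils over that in macrophages for the 8 members, 12 macrophage markers and 10 neutrophil markers, within 4T1P (left) and 4T1M (right). Points are ratios of summed UMIs scaled by class totals and bars are 95% counting intervals. Iigp1 lies close to most macrophage markers in both libraries, and the other 7 members lie between -1.19 and 2.12.

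T/NK cells held Igtp at 6.84 times the macrophage level in 4T1P and 2.70 times in 4T1M, and Ifi47 at 3.68 and 1.90 times, with intervals that did not reach 1 in any of the 4 cases. Iigp1 was also present in them, at 74.2 CPM (52.0 to 103) in 4T1P and 45.0 CPM (29.4 to 66.0) in 4T1M. Gbp3 and Gbp7 in T/NK cells were not distinguishable from their macrophage levels in 4T1P, but were at 26.9% (14.9% to 42.6%) and 48.1% (35.8% to 62.4%) of them in 4T1M. T/NK cells were few, and each of these values rests on 16 to 62 UMIs.

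**Figure D2:**
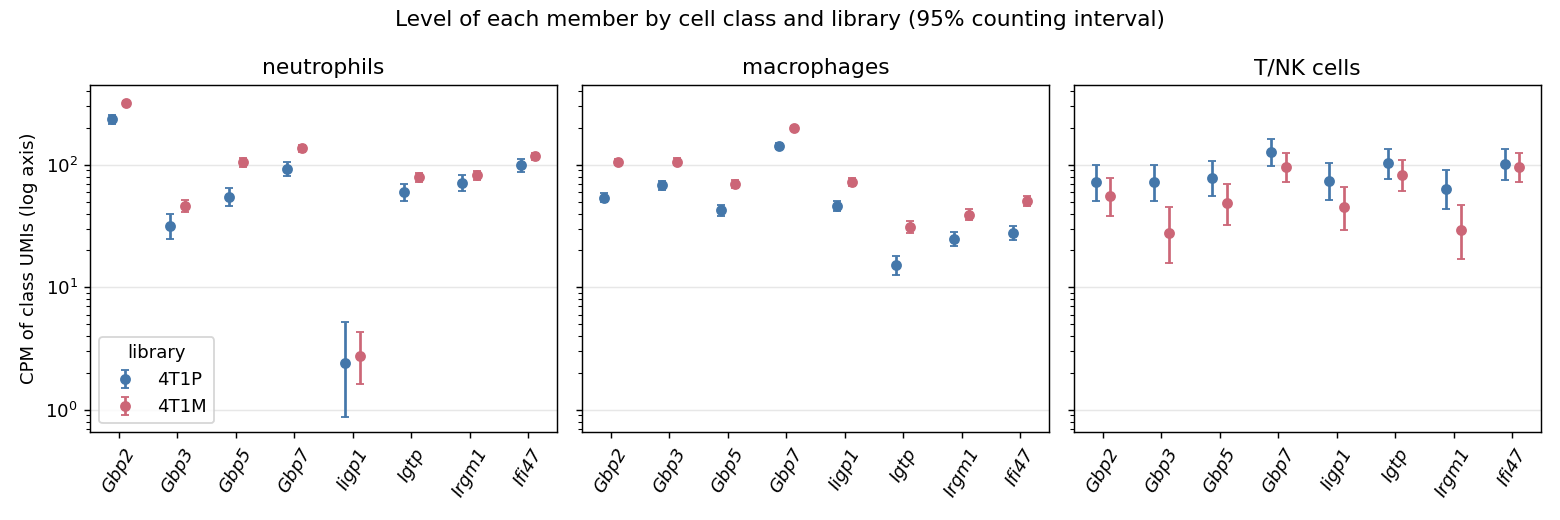
Level of each member in CPM (log axis) in neutrophils, macrophages and T/NK cells, for 4T1P (blue) and 4T1M (red). Points are UMIs summed over the cells of a class and library and bars are exact 95% Poisson intervals. 4T1M lies above 4T1P for all members in neutrophils and macrophages and below it for all in T/NK cells, with Iigp1 at 2.4 and 2.74 CPM in neutrophils.

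The second comparison set 4T1M against 4T1P within a class, to ask whether the GTPases were higher in the tumors that respond to anti-PD1. A gene was called at a ratio of 1.5-fold if its UMIs over both libraries came to 20 or more. In macrophages all 8 members were higher in 4T1M and 7 of 8 were called, where 5.71% of the 11316 genes with enough UMIs were called higher and 6.14% lower. In neutrophils all 8 had a ratio above 1 but 1 of 8 was called, where 12.2% of 8461 genes were called higher and 6.31% lower, so that the count called was close to the share over all genes. Among these 8, Iigp1 was at the level of macrophage RNA. Iigp1 and Irgm1 were slightly below 1 in neutrophils when each cell had equal weight. Iigp1 was also below 1 there with stricter class thresholds (log2 ratio -0.41) and without the top 5% of cells by UMIs (-0.26). The T/NK cells had a ratio below 1 for all 8, and 4 of 8 were called lower, where 16.8% of 5741 genes were called lower and 8.6% higher.

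In macrophages the 8 members together stood at 421 CPM in 4T1P and 674 CPM in 4T1M, a log2 ratio of 0.68 (0.62 to 0.74). The median over the members was 0.69, and over all genes -0.03. Igtp had the highest ratio, from 15.2 to 31.0 CPM, or 1.03 on the log2 scale (0.73 to 1.34). Gbp2 went from 54.1 to 106 CPM, a log2 ratio of 0.97 (0.81 to 1.13), on 474 and 988 UMIs. Ifi47 followed at 0.86 (0.64 to 1.10), from 27.7 to 50.5 CPM. All members differed by more than counting error, and the 3 genes just named were at 1.82-fold or more.

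The other 5 members of macrophages lay closer together. Gbp5 went from 42.4 to 69.6 CPM, a log2 ratio of 0.71 (0.53 to 0.90). Irgm1 went from 24.8 to 39.2 CPM, a log2 ratio of 0.66 (0.42 to 0.91). Iigp1 and Gbp3 both stood at 0.64, from 46.2 to 72.2 CPM and from 68.2 to 106 CPM. These 4 were above the 1.5-fold line (0.58 on the log2 scale), but the lower bounds of their intervals were below it. Gbp7, which had the most UMIs, 1251 and 1866, stood at 0.48 (0.38 to 0.59) and was not called. With barcodes of at most 5% mitochondrial UMIs 4 members were called, namely Gbp2, Gbp3, Igtp and Ifi47, and 4 again when each cell had equal weight, namely Gbp2, Gbp3, Gbp5 and Igtp. All 8 ratios stayed above 1 in both cases.

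In neutrophils the 8 members together stood at 647 CPM in 4T1P and 888 CPM in 4T1M, a log2 ratio of 0.46 (0.38 to 0.54), and their median was 0.42 against 0.04 over all genes. The neutrophil rule asks for a minimum share of S100a8 and S100a9. The study reports lower RNA of both in the interferon-stimulated neutrophils it set apart. Whether the rule left out such cells was not tested. Retained barcodes of no class numbered 243 in 4T1P and 705 in 4T1M, with the members at 578 and 808 CPM. With stricter class thresholds, among them 5% for S100a8 and S100a9, the summed ratio was 0.36. Gbp5 was the called member. It went from 54.7 CPM (137 UMIs) to 105 CPM (688 UMIs), a log2 ratio of 0.93 (0.67 to 1.21). Gbp7 stood at 0.56 (0.36 to 0.78) and Gbp3 at 0.55 (0.20 to 0.93), just under the line, and Gbp3 was called when the mitochondrial limit was 5%. With stricter class thresholds Gbp5 fell to 0.64, below its interval but still called, and Gbp3 to 0.42. Without the top 5% of cells by UMIs, Gbp5 stood at 0.76 and Gbp3 at 0.37. Gbp2, the member with the most UMIs, stood at 0.44 (0.31 to 0.57).

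The immunity-related GTPases of neutrophils had ratios of 0.40 or below. Igtp stood at 0.40 (0.14 to 0.67) and Ifi47 at 0.24 (0.03 to 0.45). Irgm1 stood at 0.20, with an interval of -0.04 to 0.46 that includes 0, and Iigp1 at 0.11 (-1.20 to 1.81), on too few UMIs for a difference to be detectable. When each cell had equal weight, Igtp stood at 0.28, Ifi47 at 0.08, Irgm1 at -0.02 and Iigp1 at -0.04. The macrophage ratio exceeded the neutrophil ratio by 0.53 for Gbp2, 0.63 for Igtp, 0.46 for Irgm1 and 0.62 for Ifi47, with counting intervals that exclude 0. For Gbp3, Gbp5 and Gbp7 the difference between the classes was 0.09 (-0.30 to 0.47), -0.22 (-0.54 to 0.10) and -0.08 (-0.31 to 0.15), so that it was not detectable at this depth. The size of the class differences depended on the processing. With the 5% mitochondrial limit the macrophage and neutrophil ratios were 0.72 and 0.46 for Gbp2 and 0.48 and 0.28 for Irgm1. They were 1.02 and 0.44 for Igtp and 0.76 and 0.28 for Ifi47. With equal weight per cell they were 0.37 and 0.08 for Ifi47, and 1.13 and 0.28 for Igtp.

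Markers of other cells in these classes moved in several ways, and their part in the ratios was not tested. In neutrophils the 12 macrophage markers summed to 3970 CPM in 4T1P and 3935 CPM in 4T1M, and 2 of the 10 with enough UMIs were called higher, none lower. The tumor epithelial markers summed to 74.3 and 13.5 CPM there, and the T and NK markers to 1.20 and 2.74 CPM. In macrophages 5 of 9 neutrophil markers were called higher in 4T1M, namely Csf3r, Cxcr2, Il1r2, G0s2 and Hdc, and Mmp9 was called lower, with a median log2 ratio of 0.72 beside the members' 0.69. These markers summed to 501 and 623 CPM, and the macrophage markers to 7166 and 5830 CPM, with Mrc1, Pf4, Selenop, Lyve1 and Folr2 called lower.

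**Figure D3:**
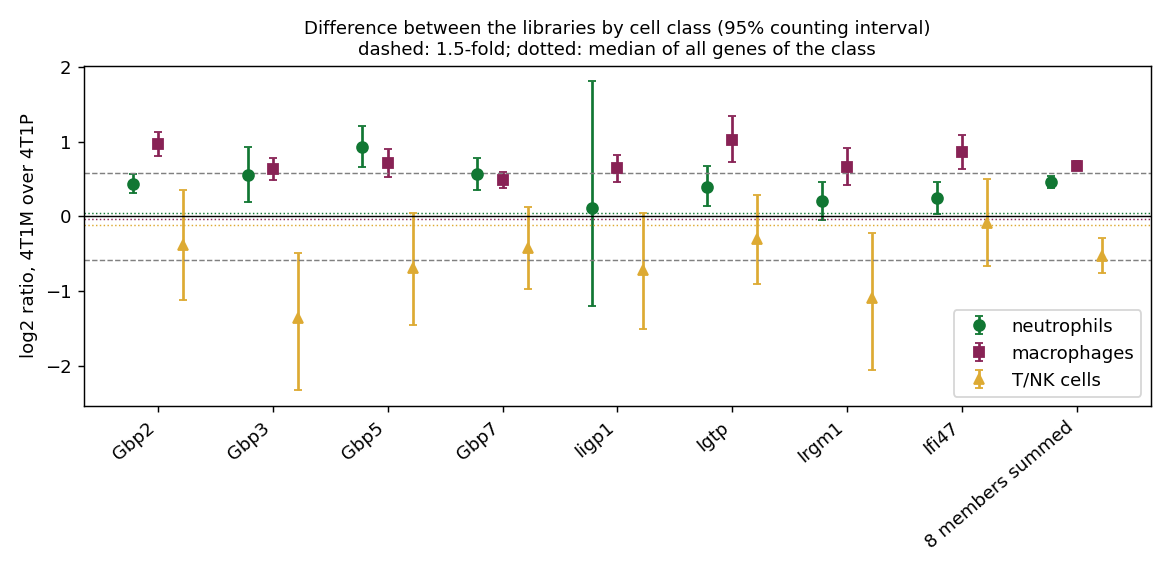
Log2 ratio of 4T1M over 4T1P for each member and for the 8 members summed, in neutrophils (circles), macrophages (squares) and T/NK cells (triangles), with 95% counting intervals. Dashed lines mark 1.5-fold and dotted lines the median of all genes of a class. Summed ratios were 0.46, 0.68 and -0.53 in turn.

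The 8 members together in T/NK cells stood at 693 CPM in 4T1P and 480 CPM in 4T1M, a log2 ratio of -0.53 (-0.76 to -0.30), on 336 and 277 UMIs. The median over the members was -0.55, and over all genes -0.12. Gbp3 went from 72.2 CPM (35 UMIs) to 27.7 CPM (16 UMIs), a log2 ratio of -1.36 (-2.33 to -0.49). Irgm1 went from 63.9 CPM (31 UMIs) to 29.5 CPM (17 UMIs), a log2 ratio of -1.10 (-2.06 to -0.22). Gbp5 at -0.69 and Iigp1 at -0.71 were also called, but their intervals include 0, as do those of the 4 members not called. The lower ratios of Gbp3 and Irgm1 thus exceeded counting error, and those of the other 6 did not.

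These T/NK cells were carried along in an isolation for GR1, and the lower level did not hold in all of them. In cells with at most 5% mitochondrial UMIs, 28 in 4T1P and 25 in 4T1M, the summed level was 587 CPM and 597 CPM, a log2 ratio of 0.024 (-0.36 to 0.41), and no member was called lower. Gbp3 stood at -1.21 and Irgm1 at -1.0 there, but with fewer than 20 UMIs over both libraries they could not be called. Gbp2 turned from -0.38 to 1.53 in these cells, and Ifi47, Gbp5 and Iigp1 were also above 0. In cells above 5%, 46 and 73, it was 773 and 425 CPM. The cells also differed in kind. A UMI of Nkg7, a gene of cytotoxic T and NK cells, was found in 36.5% of the T/NK cells of 4T1P (27 cells) and 56.1% of those of 4T1M (55 cells). With it, the members summed to 482 CPM (396 to 581) in 4T1P and 460 CPM (393 to 534) in 4T1M. Without it, they summed to 880 CPM (769 to 1003) and 516 CPM (423 to 622). The neutrophil markers summed to 53.6 CPM in the T/NK cells of 4T1P and 475 CPM in those of 4T1M, and the members' log2 ratio was -0.46 when the 2 cells with a neutrophil-like share of S100a8 and S100a9 were left out. Of 6 dendritic cell markers, Ccr7, which T cells also make, had 219 and 446 UMIs and the other 5 were at 0. The part of these differences in the members' ratios was not tested.

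Shares of cells with a member were compared at an equal depth of 1000 UMIs drawn from each cell, so that shallower cells dropped out, namely 26 macrophages of 4T1P and 4 neutrophils, 37 macrophages and 1 T/NK cell of 4T1M. At least 1 of the 8 members was found in 33.5% of neutrophils in 4T1P (205 of 612, interval 29.8% to 37.4%) and 42.3% in 4T1M (712 of 1682, interval from 40% to 44.7%). In macrophages the share was 28.6% (221 of 772, 25.5% to 32.0%) and 41.2% (387 of 939, 38% to 44.4%). Among T/NK cells it was 47.3% (35 of 74) and 39.2% (38 of 97), with overlapping intervals. Unthinned, the shares were 53.4% and 67.1% in neutrophils, 66.7% and 75.2% in macrophages and 86.5% and 83.7% in T/NK cells. No class was known to lack the members, so that free RNA in the droplets was gauged for Iigp1 alone, which was found in 0.327% and 0.357% of thinned neutrophils.

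Cells with several members were more frequent among neutrophils than among macrophages. Cells with 3 or more different members made up 6.54% of neutrophils in 4T1P (40 cells, interval 4.71% to 8.79%) and 7.91% in 4T1M (133 cells, 6.66% to 9.30%). In macrophages they made up 1.30% (10 cells, 0.623% to 2.37%) and 2.88% (27 cells, 1.90% to 4.16%). The 2 classes had been thinned to the same depth, and their intervals did not overlap in either library. There were 4 such T/NK cells of 74 in 4T1P and 0 of 97 in 4T1M, where the exact interval allows a share of up to 3.73%.

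In neutrophils and macrophages, an immunity-related GTPase was found more often in cells with a GBP member than in cells without. Among neutrophils with a GBP member, 36.3% also held an immunity-related GTPase in both libraries, against 10.5% of the neutrophils without one in 4T1P and 11% in 4T1M. Among macrophages with a GBP member the share was 19.9% in 4T1P and 21.2% in 4T1M, against 8.32% and 12.8% of those without. The shares in T/NK cells were 47.8% (11 of 23) against 23.5% (12 of 51) in 4T1P, and 20% (4 of 20) against 23.4% (18 of 77) in 4T1M. The neutrophil and macrophage intervals did not overlap between cells with and without a GBP member.

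**Figure D4:**
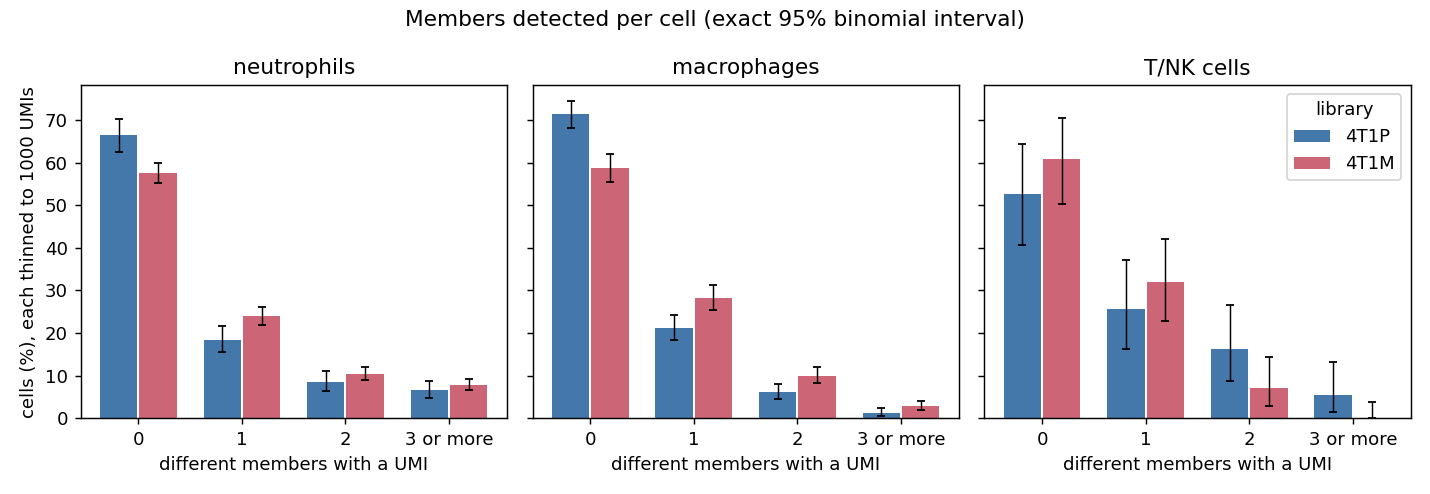
Percentage of cells with a UMI of 0, 1, 2 and 3 or more different members, after thinning to 1000 UMIs per cell, in the 3 classes of 4T1P (blue) and 4T1M (red). Bars start at 0 and whiskers are exact 95% binomial intervals. The share with none was 66.5% and 57.7% in neutrophils and 71.4% and 58.8% in macrophages.

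The cells were then divided by their type I interferon response, as UMIs of 18 genes such as Isg15, Rsad2 and Ifit1 in the thinned cell, to see which cells held the members. In neutrophils of 4T1P the 8 members gave 0.208 UMIs per cell where no type I UMI was found, 0.465 where there were 1 to 2, and 1.89 (1.69 to 2.10) where there were 3 or more. In 4T1M the same strata gave 0.308, 0.593 and 1.59 (1.5 to 1.68). Macrophages held 0.340, 0.424 and 0.730 in 4T1P and 0.377, 0.555 and 0.892 in 4T1M. Both families followed the type I response of neutrophils, the GBP members from 0.151 to 1.17 and the immunity-related members from 0.0566 to 0.714 UMIs per cell in 4T1P.

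More neutrophils of 4T1M were in the highest stratum, 768 of 1682 against 185 of 612 in 4T1P, and more macrophages, 417 of 939 against 152 of 772. Within the strata the direction was not the same throughout. In the highest stratum of neutrophils the members were lower in 4T1M, with a log2 ratio of -0.25 (-0.42 to -0.07), and the immunity-related members stood at -0.49 (-0.77 to -0.19) while the GBP members stood at -0.12 (-0.34 to 0.10). In the strata without a type I UMI and with 1 to 2 the ratios were 0.56 (0.06 to 1.10) and 0.35 (0.02 to 0.69). In macrophages they were 0.15 (-0.28 to 0.57), 0.39 (0.04 to 0.74) and 0.28 (-0.02 to 0.61) from the lowest to the highest stratum.

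**Figure D5:**
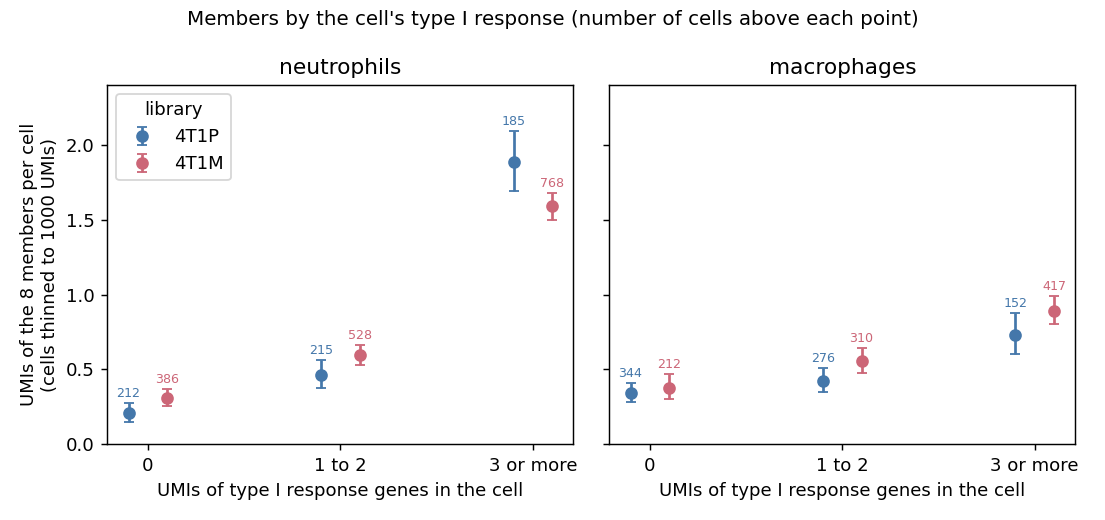
UMIs of the 8 members per cell thinned to 1000 UMIs, against the number of type I interferon-response UMIs in the same thinned cell, for neutrophils (left) and macrophages (right) of 4T1P (blue) and 4T1M (red). Bars are exact 95% Poisson intervals and the number of cells stands above each point. In neutrophils with 3 or more such UMIs the members reached 1.89 UMIs per cell in 4T1P and 1.59 in 4T1M.

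Ly6e, an interferon-stimulated gene for a surface protein by which the study set apart a subset of neutrophils, divided them in the same manner. Neutrophils with a Ly6e UMI held 2.28 member UMIs per cell in 4T1P (29 cells, interval 1.76 to 2.90) and 1.55 in 4T1M (229 cells, 1.39 to 1.72). Those without held 0.732 and 0.893. Cxcl9, a chemokine gene induced by IFN-gamma, divided the macrophages. Those with a Cxcl9 UMI held 0.873 member UMIs per cell in 4T1P (55 cells) and 1.01 in 4T1M (71 cells), and those without held 0.414 and 0.636. Between the libraries the members differed by 0.62 (0.41 to 0.83) on the log2 scale in macrophages without Cxcl9, and by 0.21 (-0.33 to 0.77) in those with it.

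The genes most like the members were found by Pearson's r across cells of 1 library between log values of the summed members and of each other gene, and ranked by the lower of the 2 libraries. These values share library and depth and are a description. In neutrophils, over 4073 genes, Gbp2b came first with r of 0.64 in 4T1P and 0.57 in 4T1M, followed by Isg15 (0.50 and 0.48), Rsad2, Parp14, Trim30a, Slfn5, Samhd1, Ifit1, Rtp4 and Herc6. In macrophages, over 8271 genes, Gbp2b again came first (0.49 and 0.44), and Gbp4 (0.40 and 0.42), Ifit2, Isg15, Ifi44, Ifi203, Zbp1, Gatm and Tap1 were also among the first 10.

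Other genes of the pathway were taken from lists. Over all genes with enough UMIs, 12.2% were called higher in neutrophils, 5.71% in macrophages and 8.6% in T/NK cells. The shares called lower were 6.31%, 6.14% and 16.8% in turn. Of the ligands, Ifng had no UMI in the neutrophils or macrophages of either library. It had 24 UMIs in the T/NK cells of 4T1P and 27 in those of 4T1M, all in cells with an Nkg7 UMI. Ifnb1 was called higher in neutrophils, with 3 UMIs in 4T1P and 71 in 4T1M, and had 579 and 553 UMIs in macrophages. None of the receptor genes Ifngr1, Ifngr2, Ifnar1, Ifnar2 and Il10rb was called in neutrophils or macrophages, where their log2 ratios lay between -0.24 and 0.31. Ifnar1 was called lower in T/NK cells, at -0.88. It was 1 of 6 ligand and receptor genes tested there, close to the share of all genes called lower.

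Of the 12 signalling and feedback genes, 3 were called higher in neutrophils and 4 in macrophages, and none lower in either. Irf1, which acts on GBP promoters after IFN-gamma, stood at 0.08 in neutrophils, -0.18 in macrophages and -0.46 in T/NK cells. Irf9, the part of ISGF3 that binds DNA, stood at 0.39, 0.43 and -0.35. Jak2, a kinase of the IFN-gamma receptor, was called in both classes, at 0.81 and 0.67, as was Usp18, a brake on type I signalling, at 0.97 and 1.76. Tyk2 was also called in neutrophils and Stat2 in macrophages. Jak2, Irf2 and Tyk2 were called lower and Irf8 higher in T/NK cells.

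Of the other GBP and IRG family genes, 4 of 9 were called higher in neutrophils, with a median log2 ratio of 0.32, and 6 of 13 in macrophages, with a median of 0.53. Gbp4 stood out in neutrophils at 1.48, from 14 to 106 UMIs, and Gbp9 at 0.87. Gm4070 and Irgq were called there too, from 9 to 51 and from 4 to 20 UMIs. Gbp2b, Gbp8, Gbp6 and F830016B08Rik were called in macrophages, at 0.59, 0.82, 1.11 and 0.78. Of the 6 tested in T/NK cells, Gbp4 alone was called, lower at -1.07, a count close to the share of all genes called lower there, 16.8%.

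The type I response list had higher medians than the GTPases, with no test of the difference, and most of its genes were called in the myeloid classes. In neutrophils 13 of 18 genes were called higher, with a median log2 ratio of 0.94, and in macrophages 16 of 18, with a median of 1.13. Rsad2, an antiviral enzyme gene, stood at 0.93 in neutrophils and 1.44 in macrophages. Rtp4, Slfn5 and Oasl1 were among those called in neutrophils, and Isg15, Oasl1 and Ifi44 among those in macrophages. The other IFN-gamma-response genes had lower medians than the GTPases in neutrophils and macrophages. In neutrophils 4 of 21 were called, with a median of 0.29, where 12.2% of all genes were called higher. They were Icam1 (1.16), Cxcl10 (0.88), Psmb10 (0.61) and Nlrc5 (1.35). In macrophages 2 of 24 were called, Psmb9 (0.66) and Tap1 (0.91), with a median of 0.42. That count was close to the share of all genes called higher in macrophages, 5.71%. For T/NK cells the type I list had a median of -0.11 over 12 genes. Isg15 and Rsad2 were called higher, where 8.6% of all genes were. Ifit2 and Isg20 were called lower, a count close to the share of all genes called lower, 16.8%. The IFN-gamma-response list had a median of -0.07 over 17 genes in T/NK cells, with 4 called in each direction. Those called higher there were Cd74, H2-Aa, H2-Eb1 and H2-Ab1, genes of antigen-presenting cells. Those called lower were the immunoproteasome genes Psmb8 and Psmb10, the proteasome activator gene Psme2 and the chemokine gene Cxcl10.

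Genes that act with the GTPases were taken from short lists. Over all genes, 12.2% were called higher and 6.31% lower in neutrophils, and 5.71% and 6.14% in macrophages. For lists of this length, no called gene is close to those shares. None of the 10 autophagy genes that help load GTPases onto vacuoles, among them Atg5 and Gabarapl2, was called in neutrophils, macrophages or T/NK cells, with medians of -0.15, -0.08 and -0.10. None of the 8 inflammasome and pyroptosis genes was called in neutrophils or macrophages, with medians of 0.25 and 0.23. Of these 8, 7 had a ratio above 1 in neutrophils and 5 in macrophages. Of the 6 tested in T/NK cells, Il1b and Nlrp3, genes of myeloid cells, were called higher and Gsdmd lower. Over all genes there, 8.6% were called higher and 16.8% lower.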

How the data were processed

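The authors aligned reads of both libraries to mm10 (GRCm38) with Cell Ranger, 4.0.0 in the submitters' processing notes and a later version in the study's methods, and deposited UMI counts per gene and barcode. These are whole-number counts with no class labels. The study's methods describe a normalization for sequencing depth by Cell Ranger, and whether it changed these counts was not tested. The counts hold 21855657 UMIs in 4T1P and 24303957 in 4T1M.

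From these counts, the UMIs of each class were added up in each library and scaled by class totals (CPM). Log2 ratios had 0.5 UMIs added to each sum. Intervals are exact Poisson, exact conditional or Clopper-Pearson, except those of differences between classes. These are normal approximations from the counting errors of the 2 ratios. Thinning drew 1000 UMIs per cell without replacement. Doublets were not removed. A barcode that met 2 rules counted in both classes. All 8 members are given, with listed genes past 1.5-fold (up to 4 per list and class, most UMIs first, or all where few were called) and Irf1, Irf9 and Ifng. The values of 1 listed gene are not reported here. Members, lists, class rules and tests were chosen with earlier results of these data known. Ratios and intervals were tested on Poisson counts simulated from the class means. Those counts hold no spread between cells, animals or libraries, so the test covers the calculation only. The alternatives used edgeR 4.0.16 and DESeq2 1.42.0 for scaling factors only, besides other filters, thresholds and weights. Symbols Gbp11, Gm12250, Mx1 and Mx2 were not used here. Python 3.11.15 and scipy 1.17.1 were used, with gene positions from GENCODE M21.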

Additional observations from a re-analysis of the deposited data

Results flagged for a closer look

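The log2 ratio of 4T1M over 4T1P had opposite signs in T/NK cells and in myeloid cells for 2 members and for the sum of all 8. In the pairs given here, the counting intervals excluded 0 on both sides. Gbp3 stood at -1.36 in T/NK cells against 0.55 in neutrophils and 0.64 in macrophages. Irgm1 stood at -1.10 in T/NK cells against 0.66 in macrophages. The 8 members summed stood at -0.53 in T/NK cells against 0.46 in neutrophils and 0.68 in macrophages. With 1 library per condition the difference between the classes was not tested beyond its counting interval, which was -1.23 to -0.74 against neutrophils and -1.44 to -0.97 against macrophages for the sum. The T/NK value was 0.024 in cells with at most 5% mitochondrial UMIs.

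Barcodes outside the comparisons also held the members. Those above 5000 detected genes stood at 565 CPM in 4T1P and 648 CPM in 4T1M, and those under 500 genes at 177 and 407 CPM. Those above 10% mitochondrial UMIs stood at 522 and 811 CPM, and retained barcodes of no class at 578 and 808 CPM.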

How the results depend on the processing

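Over the alternatives, single members kept their sign in 60 of 64 values in neutrophils, 64 of 64 in macrophages and 66 of 72 in T/NK cells. The summed log2 ratio kept its sign under all 8 alternatives in neutrophils and in macrophages, and under 8 of 9 in T/NK cells. In neutrophils (0.46) it moved past its counting interval with stricter class thresholds (0.36), without the top 5% of cells by UMIs (0.34) and with equal weight per cell (0.37). In macrophages (0.68) it moved with a 5% mitochondrial limit (0.61), no cell filter (0.58) and equal weight per cell (0.52). In T/NK cells it reversed with the 5% limit (0.024), as did Gbp2 (1.53), Gbp5 (0.87), Ifi47 (0.32) and Iigp1 (0.040), where 28 and 25 cells remained and 0 members were called lower in place of 4, since Gbp3 (-1.21) and Irgm1 (-1.0) had fewer than 20 UMIs. Members called in neutrophils were 2 in place of 1 with the 5% limit, no cell filter or equal weight per cell. In macrophages 4 in place of 7 were called with the 5% limit or equal weight per cell. The causes were not tested. Scaling by TMM or DESeq2 size factors shifted T/NK ratios by 0.12 and 0.11 and those of the other classes by less than 0.1, and gave 3 called members in T/NK cells. Leaving out T/NK cells with neutrophil-like S100a8 and S100a9 was chosen after seeing the data. The share of cells with a member, for 4T1P and 4T1M, was 20.9% and 27.7% of neutrophils at 500 UMIs (53.4% and 67.1% not thinned), 15.9% and 23.7% of macrophages (66.7% and 75.2%) and 25.7% and 23.5% of T/NK cells (86.5% and 83.7%). With no UMI minimum beyond 1, 2755 genes were called higher and 3393 lower in neutrophils in place of 1035 and 534, 3023 and 3077 in macrophages in place of 646 and 695, and 3145 and 3545 in T/NK cells in place of 494 and 963. No paired analysis was possible because each condition has 1 library. Depth limits the T/NK values, with 16 to 62 UMIs per member and library, and Iigp1 in neutrophils, with 6 and 18.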
